A study of Homo sapiens with 8 samples.

Results

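The genes described here are 10 members of the BCL2 family, which decide at the outer membrane of mitochondria whether a cell enters apoptosis. They were taken by name from a list of 3 pro-survival genes (BCL2, BCL2L1 and MCL1) and 7 pro-death genes: the effectors BAX and BAK1, and the BH3-only genes BID, BAD, BBC3, PMAIP1 and BCL2L11. All 10 were found, by the symbol of their Ensembl ID, among the 20453 genes counted in each library. The rule used their names and no measured value, but the list was chosen with earlier results of these data known. THP-1, the label of the cells, is a human line grown from an acute monocytic leukaemia. They had been transduced with wild-type DNMT3A (wt) or with a DNMT3A mutant (mut), so every group carried an introduced DNMT3A on top of the line's own gene, and no untransduced group was analysed here. DNMT3A is a de novo DNA methyltransferase. Each genotype had 2 libraries of mRNA and 2 libraries of ribosome footprints, the mRNA fragments that a ribosome shields from nuclease. The vector, its promoter, the number of clones and any drug treatment have no entry in the sources used here, nor is it said whether the 2 replicates of a group were separate cultures, so the p-values cover the spread between libraries and that spread may be technical.

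The pro-survival proteins hold the effectors and the BH3-only proteins in a groove on their surface. When BH3-only proteins outnumber that buffer, BAX and BAK1 oligomerise and open pores in the outer mitochondrial membrane, and cytochrome c and DIABLO escape into the cytosol, where caspases are switched on. In myeloid leukaemia cells the balance between BCL2, BCL2L1 and MCL1 on the one side and the BH3-only proteins on the other is the target of the drugs called BH3 mimetics.

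Library totals lay between 3415999 and 4523475 counts for mRNA and between 603360 and 1988513 for footprints, so that a floor of 3 counts stood at 0.671 to 0.885 CPM (counts scaled to a common library size) in mRNA and at 1.54 to 4.89 CPM in footprints. These floors, and the binomial intervals given below, cover counting error only. DNMT3A mRNA was 290.7 and 293.8 CPM in wild type and 240.5 and 243.8 CPM in the mutant (edgeR log2 fold change -0.27, adjusted p = 4.3e-06). DNMT3A footprints were 136.7 and 153.0 CPM in wild type and 143.4 and 148.3 CPM in the mutant. They were not called (edgeR log2 fold change -0.003, adjusted p = 0.992). The counts do not separate the introduced from the endogenous copy, and whether all reads of the introduced copy were counted is not known. Of 15 monocyte markers, 4 reached 10 CPM in the mRNA libraries (LYZ, CD68, CD33 and SPI1), while S100A8, S100A9, MPO, FCN1, CD163 and IRF8 had no count in any of the 8 libraries. All 12 erythroid markers reached 10 CPM in every mRNA library. These levels go against the label of a monocytic line, and the cells are called THP-1 here only as labelled. The summed mRNA level of the erythroid markers was 2293 to 2352 CPM in wild-type and 1882 to 1939 CPM in mutant libraries, and that of 4 epithelial markers, 3 of them over 10 CPM, was 819 to 842 CPM and 666 to 673 CPM, whereas the monocyte markers summed to 159 to 168 CPM and 161 to 170.03 CPM. In footprints the erythroid markers summed to 2076 to 2104 CPM in wild type and 1823 to 1913 CPM in the mutant, and the epithelial ones to 618 to 641 CPM and 432 to 454 CPM. Of 4 T cell markers 1 reached 10 CPM and of 4 B cell markers none did. The part of these marker differences in the results below was not tested, and in bulk samples fewer cells of a type and less RNA per cell cannot be told apart.

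Among the 10 members, 1 was called lower in mutant mRNA (BAX) and 1 lower in mutant footprints (MCL1), and none was called higher in either. Over all genes, edgeR's quasi-likelihood test called 37.8% of 10756 genes in mRNA (18.9% higher and 18.9% lower) and 21.2% of 9181 in footprints (10.3% higher and 10.9% lower), with a threshold of 0.05 on the p adjusted by Benjamini and Hochberg. The share of members called, 1 of 10 in each assay, was not tested against these. All 10 passed the filter on low counts in both assays. The BCL2L11 footprints passed through both wild-type libraries and 1 mutant library. The median log2 fold change of the members was -0.11 in mRNA and 0.04 in footprints, beside -0.002 and 0.01 over all genes tested.

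**Figure D1:**
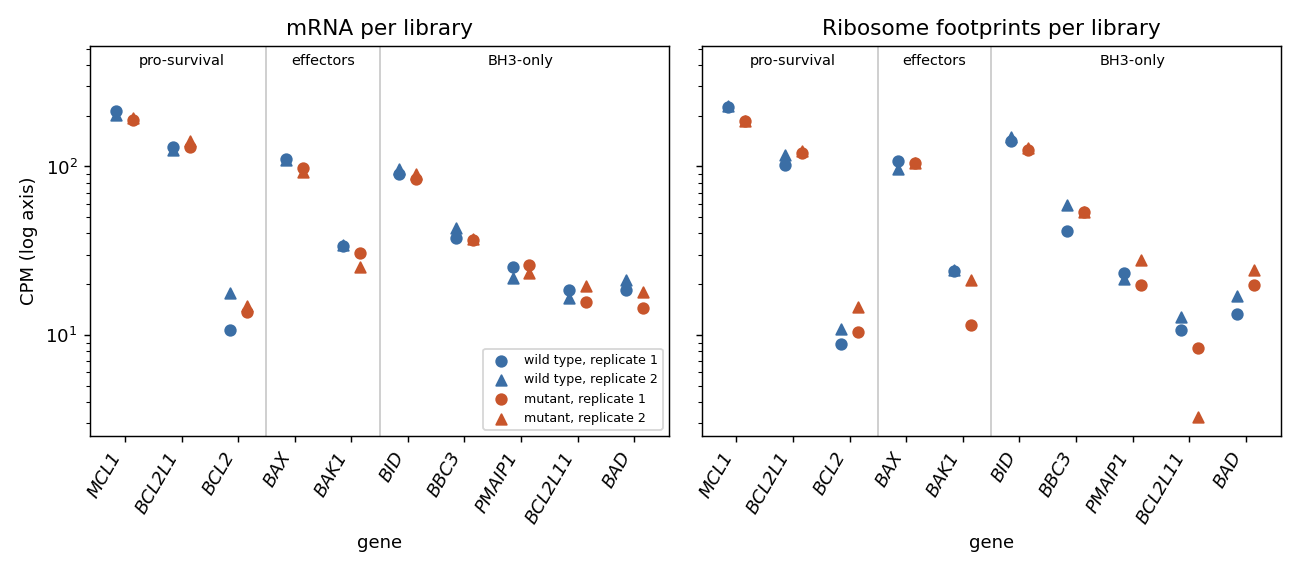
CPM of each of the 10 genes on a log axis, mRNA and footprints in separate panels, with 1 point per library (2 wild-type and 2 mutant libraries in each panel). The 2 mutant points of MCL1 lie below the 2 wild-type points in both panels, and those of BAX in the mRNA panel only.

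The effectors come first, since BAX gave the mRNA call. BAX (ENSG00000087088, chromosome 19, 48954875 to 48961798 in GRCh38.p14) makes the pore in its activated, membrane-inserted form, and BAK1 (ENSG00000030110, chromosome 6, 33572552 to 33580276) is its counterpart that sits in the mitochondrial membrane from the start. Because the study altered a DNA methyltransferase, the 250 bases before the RefSeq start of each are shown 5′ to 3′ on the gene's own strand, with the dinucleotide CG, where DNMT3A places its mark, in capitals. BAX lies on the plus strand (chr19:48954625-48954874) and BAK1 on the minus strand (chr6:33580277-33580526).
BAX: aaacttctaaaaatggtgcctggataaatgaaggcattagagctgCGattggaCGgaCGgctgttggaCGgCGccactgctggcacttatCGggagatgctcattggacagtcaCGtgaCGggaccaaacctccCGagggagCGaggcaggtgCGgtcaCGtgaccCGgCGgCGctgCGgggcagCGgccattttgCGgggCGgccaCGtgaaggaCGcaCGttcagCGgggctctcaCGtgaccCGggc
BAK1: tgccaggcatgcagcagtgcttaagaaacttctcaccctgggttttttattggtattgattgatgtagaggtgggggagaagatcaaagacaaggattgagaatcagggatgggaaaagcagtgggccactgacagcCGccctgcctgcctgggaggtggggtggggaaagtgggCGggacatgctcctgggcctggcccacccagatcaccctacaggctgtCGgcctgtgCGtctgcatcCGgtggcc
The BAX window holds 25 CG and the BAK1 window 5. CG reads the same on both strands, and 93.9% of 35116 RefSeq promoter windows of this length hold at least 1, with a median of 11. Promoters of 9 members were matched, all but MCL1, with 1 window per gene, and they hold between 4 (BBC3) and 36 (PMAIP1) CG, with a median of 24. The windows of BCL2, BID and BBC3 overlap the gene spans given below, so they precede a start inside the span. DNA methylation was not measured in these libraries, so the letters describe the windows only.

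BAX mRNA was 110.7 and 109.2 CPM in wild type, against 97.9 and 93.2 CPM in the mutant. Both mutant values lay below both wild-type values. The difference was 0.87-fold, a log2 fold change of -0.20 (SE 0.077, edgeR adjusted p = 0.0294). BAX footprints, at 108.3 and 96.0 CPM in wild type and 104.9 and 104.3 CPM in the mutant, overlapped between the groups (log2 fold change 0.04, SE 0.13, edgeR adjusted p = 0.861). The mRNA call was lost without wild-type replicate 1 (edgeR adjusted p = 0.129), without wild-type replicate 2 (0.145) and without mutant replicate 2 (0.144), and with DESeq2 (adjusted p = 0.234). BAX lies in a gene-dense region, and once a trend of the fold change with local gene density was removed the value was 0.04 (edgeR adjusted p = 0.724).

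BAK1 mRNA was 33.6 and 34.2 CPM in wild-type and 30.5 and 25.2 CPM in mutant libraries, and its footprints were 23.9 and 24.1 CPM against 11.4 and 21.2 CPM. Mutant values were lower than both wild-type values in each assay. The 2 mutant footprint values rest on 11 and 13 counts, with 95% intervals for counting error of 5.49 to 19.7 and 6.92 to 22.2 counts. Neither difference was called (log2 fold change -0.28, SE 0.14, edgeR adjusted p = 0.0930 in mRNA, and -0.65, SE 0.30, adjusted p = 0.108 in footprints). The mRNA difference passed without mutant replicate 1 (edgeR log2 fold change -0.43, adjusted p = 0.0489), the library nearer to wild type. The summed BAK1 footprints, 85 counts in wild type and 24 in the mutant, gave a ratio of 0.633 with a 95% exact interval of 0.385 to 1.01.

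Among the pro-survival genes MCL1 stood out in footprints. MCL1 (ENSG00000143384, chromosome 1, 150574558 to 150579610) encodes a short-lived pro-survival protein that binds BAK1, BCL2L11, BBC3 and PMAIP1. Its footprints were 224.2 and 227.9 CPM in wild type, against 186.0 and 185.75 CPM in the mutant. Both mutant values were lower than both wild-type values, and the values within a group lay closer together than their counting error. MCL1 footprints fell to 0.822 of the wild-type level, a log2 fold change of -0.28 (SE 0.097, edgeR adjusted p = 0.0246).

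The 2 footprint libraries of a group differed by no more than sampling noise over all genes, with a chi-square per degree of freedom of 1.01 in wild type and 0.925 in the mutant, while the mRNA replicates differed by more (1.08 and 1.33). They were kept as 2 libraries, as labelled, and the counts were also summed and taken as 1 sample a group, an alternative chosen after seeing the data. Summed, MCL1 had 800 footprints in wild type and 293 in the mutant, a depth-scaled ratio of 0.822 (95% exact interval 0.716 to 0.940), with no test over samples. The edgeR call was lost without wild-type footprint replicate 2 (adjusted p = 0.0822), mutant replicate 1 (0.262) or mutant replicate 2 (0.122). It was lost too with DESeq2 (adjusted p = 0.263) and with the density trend removed (edgeR log2 fold change -0.14, adjusted p = 0.355).

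MCL1 mRNA was 212.5 and 203.0 CPM in wild type and 188.9 and 193.4 CPM in the mutant. The mutant values were again the lower ones, by a log2 fold change of -0.12 (SE 0.059) that was not called (edgeR adjusted p = 0.104). Its value was 0.08 with the density trend removed.

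BCL2L1 (ENSG00000171552, chromosome 20, 31664452 to 31723963) encodes BCL-XL in its long form and a pro-death short form in an alternative splice product, which gene counts do not tell apart. Its mRNA was 129.9 and 125.6 CPM in wild-type and 130.5 and 142.0 CPM in mutant libraries, and its footprints 102 and 116.5 CPM against 120.5 and 123.8 CPM. It was the only member whose mutant values exceeded both wild-type values in both assays. Neither difference was called, with log2 fold changes of 0.09 (SE 0.070, edgeR adjusted p = 0.295) and 0.15 (SE 0.13, adjusted p = 0.430).

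BCL2 (ENSG00000171791, chromosome 18, 63123346 to 63320090), the founding member and the target of venetoclax, had few counts. Its mRNA was 10.6 and 17.7 CPM in wild type and 13.7 and 14.8 CPM in the mutant, and its footprints were 8.82 and 10.8 CPM and 10.4 and 14.7 CPM. The groups overlapped in both assays. The edgeR log2 fold changes were -0.04 (SE 0.20, adjusted p = 0.889) in mRNA and 0.28 (SE 0.38, adjusted p = 0.653) in footprints, and the wild-type mRNA libraries differed more from each other than the group means did.

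The BH3-only genes carry the death signal to the other members, and none of the 5 was called between genotypes in any readout. BID (ENSG00000015475, chromosome 22, 17734138 to 17774665), which caspase-8 cleaves to link death receptors to mitochondria, had mRNA values of 89.7 and 96.5 CPM in wild type and 84.0 and 90.6 CPM in the mutant, which overlapped. BID footprints were 141.1 and 150.4 CPM in wild type and 125.7 and 128.7 CPM in the mutant, both mutant values lower (edgeR log2 fold change -0.20, SE 0.12, adjusted p = 0.214).

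BAD (ENSG00000002330, chromosome 11, 64269828 to 64284704), a sensitizer that survival kinases keep inactive by phosphorylation, had mutant values on opposite sides of wild type in the 2 assays. BAD mRNA was 18.6 and 21.0 CPM in wild type and 14.4 and 18.1 CPM in the mutant (edgeR log2 fold change -0.31, SE 0.18, adjusted p = 0.156). BAD footprints were 13.2 and 16.9 CPM in wild type and 19.7 and 24.4 CPM in the mutant (log2 fold change 0.50, SE 0.30, edgeR adjusted p = 0.239). The mutant libraries were thus below both wild-type libraries in mRNA and above both in footprints, and neither difference passed. The summed footprints, 54 and 34 counts, gave a mutant to wild-type ratio of 1.41 (95% exact interval 0.892 to 2.21).

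BCL2L11 (ENSG00000153094, chromosome 2, 111120914 to 111168445) encodes BIM, which binds all the pro-survival proteins and activates BAX directly. Its mRNA was 18.6 and 16.6 CPM in wild type and 15.7 and 19.6 CPM in the mutant (edgeR log2 fold change 0.01, adjusted p = 0.977). Its footprints were 10.7 and 12.8 CPM in wild type and 8.31 and 3.26 CPM in the mutant, from 17 and 25 and from 8 and 2 counts. The mRNA groups overlapped while both mutant footprint values were low, 1 of them at 2 counts, under the floor of 3 counts. The footprint difference was not called (log2 fold change -0.89, SE 0.44, edgeR adjusted p = 0.135), and the summed ratio of 0.534 had a 95% exact interval of 0.239 to 1.08.

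BBC3 (PUMA, ENSG00000105327, chromosome 19, 47220824 to 47232860) and PMAIP1 (NOXA, ENSG00000141682, chromosome 18, 59899996 to 59904305) are transcriptional targets of p53 and of stress pathways. BBC3 mRNA was 37.8 and 43.2 CPM in wild type and 36.4 and 36.9 CPM in the mutant, the latter both lower (edgeR adjusted p = 0.315), and its footprints, 41.6 and 59.0 CPM against 54.0 and 53.8 CPM, overlapped (adjusted p = 0.821). PMAIP1, whose product binds MCL1, had overlapping values in both assays, 25.4 and 21.7 against 25.8 and 23.2 CPM in mRNA and 23.3 and 21.6 against 19.7 and 27.7 CPM in footprints. Its log2 fold changes were 0.08 (SE 0.15, edgeR adjusted p = 0.733) and 0.03 (SE 0.27, adjusted p = 0.958).

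Counted by the position of their libraries, 1 member had both mutant mRNA values above both wild-type values (BCL2L1), 5 had them below (MCL1, BAX, BAK1, BAD and BBC3) and 4 overlapped. In footprints 2 members lay above (BCL2L1 and BAD), 4 below (MCL1, BAK1, BID and BCL2L11) and 4 overlapped. Over all genes tested 67.8% did not overlap in mRNA and 58.8% in footprints, so 6 of 10 members is near the background in each assay.

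**Figure D2:**
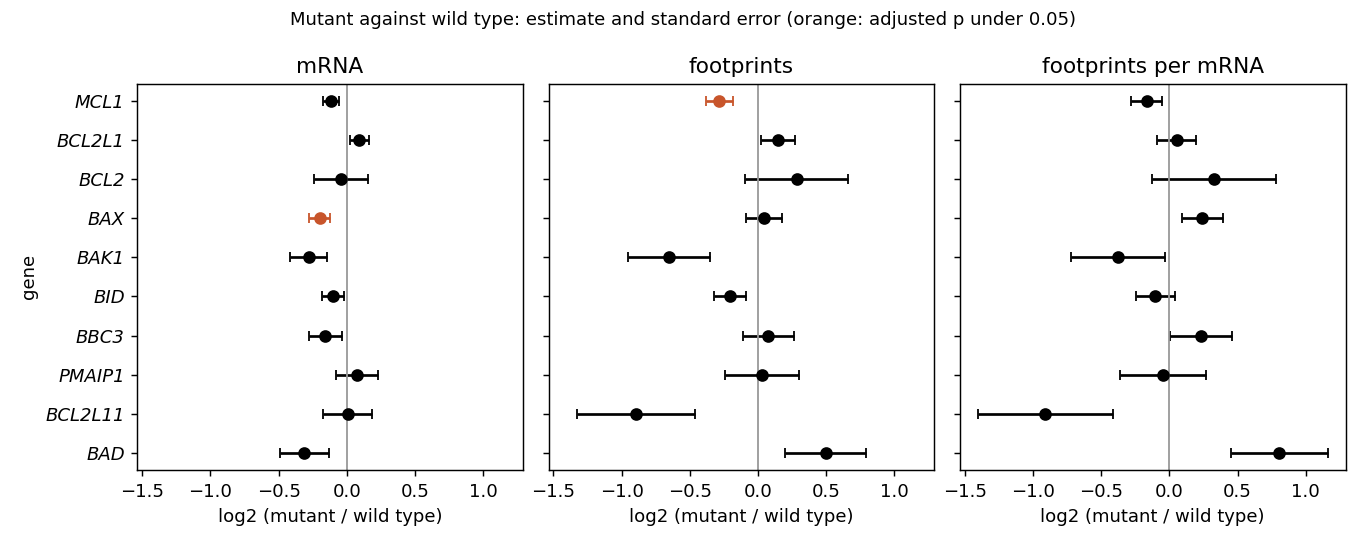
Estimated log2 ratio of mutant over wild type for each gene (x axis) with its standard error as a bar, in mRNA, footprints and footprints per mRNA. BAX in mRNA (-0.20) and MCL1 in footprints (-0.28) are the 2 estimates in orange, which passed an edgeR adjusted p of 0.05.

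Pro-survival and pro-death members were then set against each other within each library. In a ratio of single genes, gene length cancels when genotypes are compared, while in the sums of several genes longer transcripts weigh more. The summed CPM of the 3 pro-survival genes over that of the 7 pro-death genes was 1.06 and 1.01 in wild-type mRNA and 1.09 and 1.14 in mutant mRNA. The mutant libraries were higher in mRNA. In footprints the same ratio was 0.925 and 0.933 in wild type and 0.921 and 0.892 in the mutant. The mutant libraries were lower there, but the nearest libraries of the groups, at 0.925 and 0.921, were almost level. These ratios were given no test and no interval for counting error, so no shift of the balance is read from them.

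By class, the median mRNA log2 fold change was -0.04 for the 3 pro-survival genes, -0.24 for the 2 effectors and -0.10 for the 5 BH3-only genes. In footprints it was 0.15 (range -0.28 to 0.28), -0.31 (-0.65 to 0.04) and 0.03 (-0.89 to 0.50). In footprints each class held values of both signs, so these medians of few genes describe no shift of a class. MCL1 per BCL2L1 was 1.64 and 1.62 in wild-type mRNA and 1.45 and 1.36 in mutant mRNA. In footprints it was 2.20 and 1.96 in wild type and 1.54 and 1.5 in the mutant. The mutant libraries lay lower in both assays, which follows from the values of both genes given above and is no separate result. BCL2L1 per BAX was 1.17 and 1.15 in wild-type mRNA and 1.33 and 1.52 in mutant mRNA, while its footprint values of 0.942 and 1.21 against 1.15 and 1.19 overlapped. The direction in mRNA likewise follows from the values of both genes. MCL1 per BAX footprints were 2.07 and 2.37 in wild type and 1.77 and 1.78 in the mutant, and its mRNA values, 1.92 and 1.86 against 1.93 and 2.08, were slightly higher in the mutant.

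How densely each mRNA was occupied by ribosomes was read as the footprint CPM of a library over the mean mRNA CPM of its genotype. A ratio of 1 means the same share of footprints as of mRNA, and the median gene of 9166 stood at 1.02 in wild type and 1.01 in the mutant. No source used here says whether exons or coding sequences were counted, and the part played by the coding share of each transcript in differences between genes was not tested.

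BID had the highest ratio in wild type, 1.52 and 1.62, above 79.6% of genes, and BCL2L11 the lowest, 0.609 and 0.730, above 24.4% of genes. Between them came BCL2 (0.623 and 0.762), BAK1 (0.705 and 0.711), BAD (0.667 and 0.855), BCL2L1 (0.799 and 0.913), BAX (0.985 and 0.873), PMAIP1 (0.990 and 0.916), MCL1 (1.08 and 1.10) and BBC3 (1.03 and 1.46). Neighbours in this order did not overlap only between PMAIP1 and MCL1 and between BBC3 and BID.

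In the mutant the order ran from BCL2L11 (0.471 and 0.185) and BAK1 (0.410 and 0.760) through BCL2, BCL2L1, PMAIP1, MCL1 (0.973 and 0.972) and BAX (1.10 and 1.09) to BAD (1.22 and 1.51), BID (1.44 and 1.47) and BBC3 (1.474 and 1.467). Only MCL1 and BAX, and BAX and BAD, were neighbours that did not overlap. The lower BCL2L11 value rests on 2 counts, under the floor of 3, so its place among all genes is not given. BAD was 4th from the bottom in wild type and 3rd from the top in the mutant, by means over 2 libraries.

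**Figure D3:**
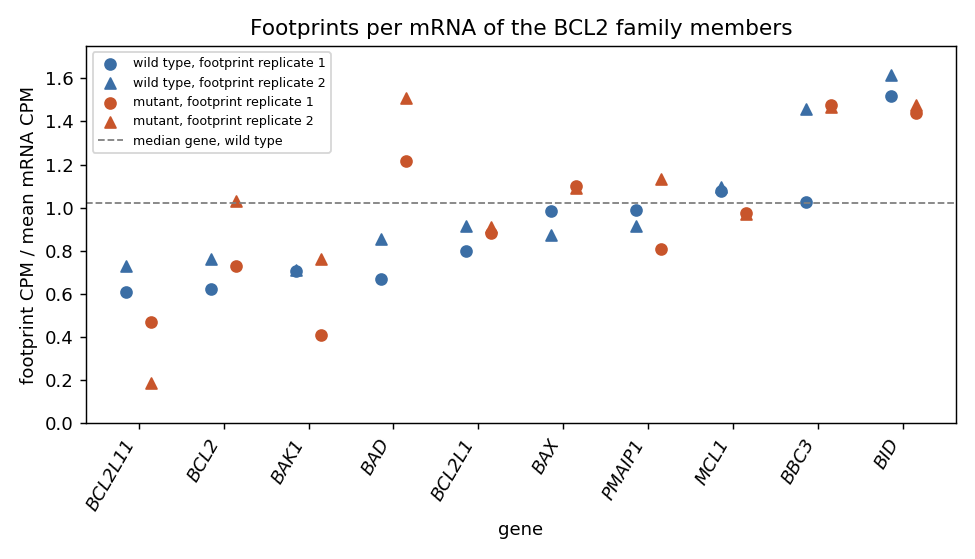
Footprint CPM over the mean mRNA CPM of the genotype for each gene, 1 point per footprint library (2 wild-type, 2 mutant). BID lies between 1.44 and 1.62 in all 4 libraries and BCL2L11 between 0.185 and 0.730.

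Footprints were tested against mRNA within each genotype in the model over all 8 libraries. In wild type 2 members were higher in footprints than in mRNA, 3 lower and 5 not called, where 70.3% of 9166 genes were called (36.2% higher, 34.1% lower). BID was higher by 0.64 on the log2 scale (SE 0.085, edgeR adjusted p = 3.3e-10), and BBC3 by 0.32 (SE 0.14, adjusted p = 0.0307). BAK1 was lower by -0.50 (SE 0.17, edgeR adjusted p = 0.00858), BCL2L11 by -0.55 (SE 0.24, adjusted p = 0.0369) and BCL2L1 by -0.21 (SE 0.087, adjusted p = 0.0256). MCL1 (0.13, edgeR adjusted p = 0.0797) and BCL2 (-0.56, adjusted p = 0.0585) were not called.

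BID alone among these 5 kept its call under every one of 9 alternatives. BBC3 lost it without wild-type mRNA replicate 1 (edgeR adjusted p = 0.153) and without footprint replicate 2 (0.882, log2 difference 0.04). BAK1 lost it without footprint replicate 2 (adjusted p = 0.0655). BCL2L1 lost it without mRNA replicate 1 (0.0779) or footprint replicate 1 (0.343), and BCL2L11 without the same libraries (0.106 and 0.221). With DESeq2 the wild-type calls of BAK1 (adjusted p = 0.0776), BCL2L1 (0.1), BCL2L11 (0.157) and BBC3 (0.187) were all lost. BCL2 passed without mRNA replicate 1 (edgeR adjusted p = 0.00512).

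In the mutant 2 members were higher in footprints, 2 lower and 6 not called, where 59.4% of genes were called (30.3% higher, 29% lower). BID was higher again, by 0.54 (SE 0.12, edgeR adjusted p = 5.2e-05), as was BBC3, by 0.56 (SE 0.18, adjusted p = 0.00704). BAK1 was lower by -0.88 (SE 0.28, edgeR adjusted p = 0.00524) and BCL2L11 by -1.46 (SE 0.40, adjusted p = 0.00105). By edgeR the effector BAK1 and the activator BCL2L11 were lower, and BID and BBC3 higher, in footprints than in mRNA in both genotypes, tests that share no library but share 1 estimate of the spread. With DESeq2 all 4 passed in the mutant, while BID alone of the 4 passed in wild type. BAK1 and BBC3 lost their call without mutant footprint replicate 1 (edgeR adjusted p = 0.412 and 0.112). BCL2L11 kept its call with each library left out, between -2.42 and -1.08.

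The test of the genotype difference in footprints per mRNA called none of the 10 members, where it called 4.15% of 9166 genes. At an unadjusted p under 0.05 it gave 1560 genes, BAD among them. DESeq2 called 127 genes and none of the members, but it gave BCL2, BAK1, BAD, BBC3, PMAIP1 and BCL2L11 no adjusted p. BAD had the highest value, a log2 ratio of 0.81 (SE 0.36, edgeR adjusted p = 0.215), and stayed between 0.64 and 1.01 with each library left out, without passing in any of them. BCL2L11 had the lowest, -0.91 (SE 0.50, adjusted p = 0.347). The other members lay between -0.38 (BAK1) and 0.33 (BCL2), with MCL1 at -0.17 (SE 0.11, edgeR adjusted p = 0.464) and BAX at 0.24 (SE 0.15, adjusted p = 0.422). The footprint call of MCL1 and the mRNA call of BAX were therefore not shown to differ from the change in the other assay.

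The mRNA fold change of a gene ran with the number of genes around it. Over 10623 genes with a position, the trend stood at 0.19 on the log2 scale at 5 other listed genes within 1 Mb (the 5th percentile) and at -0.22 at 77 (the 95th percentile). BAX has 94 such genes, BAD 65, MCL1 64, BAK1 49 and BBC3 44, while BCL2L1 has 28, BID 18, BCL2 17, BCL2L11 9 and PMAIP1 8. The 5 members in the densest regions are the 5 whose mutant mRNA values lay below both wild-type values. The trend at BAX was -0.24, beside its own -0.20, and at MCL1 -0.20, beside -0.12. With the trend removed no member was called in either assay, and the footprint trend at MCL1 was -0.15, beside its -0.28. What lies behind the trend was not tested.

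**Figure D4:**
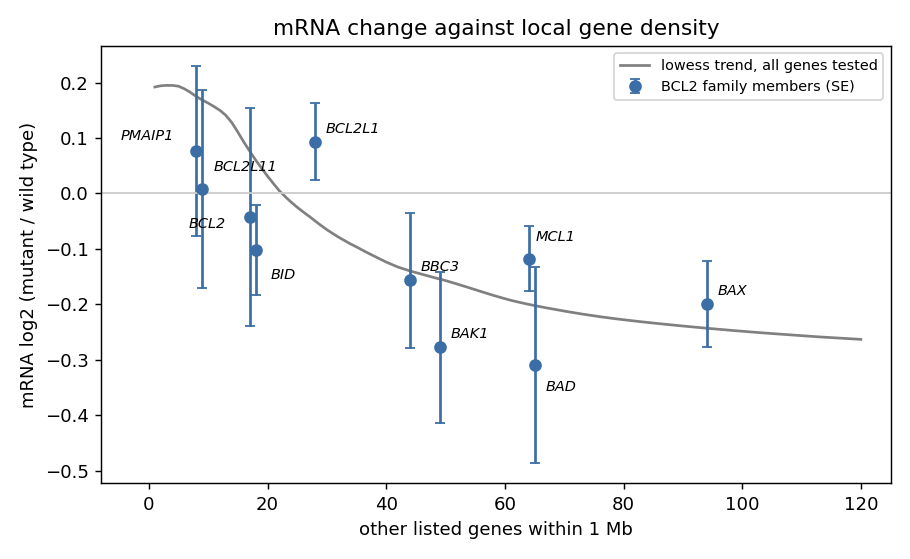
mRNA log2 ratio of mutant over wild type against the number of other listed genes within 1 Mb, with the 10 members as labelled points and the trend over all genes as a line. BAX, at 94 genes, lies at -0.20 close to the line (-0.24), and PMAIP1, at 8 genes, lies at 0.08 below it (0.17).

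Genes with the pattern most like MCL1 and BCL2L1 were sought by the Euclidean distance of log2 CPM, centred within each assay, over the 8 libraries and 3067 well-counted genes. The nearest to MCL1 were CALR (distance 0.0489), APLP2 (0.0507) and H3C7 (0.0824), beside a median distance of 0.41. The nearest to BCL2L1 were RPL10A (0.0933), TMEM135 (0.103) and PCK2 (0.110), beside a median of 0.446. Histone and ribosomal protein genes have near-identical copies, so the counts of H3C7 and RPL10A are uncertain.

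Other genes of the death pathway were read from 6 lists, whose counts stand beside the 18.9% of all genes called higher and 18.9% called lower in mRNA. The median over all genes was -0.002 in mRNA and 0.01 in footprints. Of 13 further BCL2 family genes 6 were tested in mRNA, of which 1 rose, 1 fell and 4 were not called, and none of 5 was called in footprints (median log2 fold changes -0.15 and 0.02). BCL2L13, a mitochondrial receptor for autophagy, was 142.5 and 144.4 CPM in wild type and 172.9 and 148.4 CPM in the mutant (log2 fold change 0.17, edgeR adjusted p = 0.0312), a call lost in 7 of 10 alternatives. These included leaving out wild-type replicate 1 (edgeR adjusted p = 0.154), wild-type replicate 2 (0.147) or mutant replicate 1 (0.693), and DESeq2 (0.266). BOK, an effector relative named after its value was seen, fell (edgeR log2 fold change -0.53, adjusted p = 0.0259). BCL2A1, BCL2L10 and BCL2L14 had no count in any library.

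Downstream of the pore, 4 of 13 genes of the apoptosome, the caspases and the proteins released from mitochondria rose in mRNA, 3 fell and 6 were not called, where 37.8% of all genes were called. The median log2 fold change of the list was 0.13. CYCS, which encodes cytochrome c, rose from 130.4 and 129.4 CPM in wild type to 164.6 and 145.1 CPM in the mutant (log2 fold change 0.26, SE 0.067, edgeR adjusted p = 0.00077). The call was lost without mutant replicate 1 (0.16, edgeR adjusted p = 0.126) with DESeq2 (adjusted p = 0.0729) and with the density trend removed (0.065, edgeR adjusted p = 0.517). Its footprints, at 77.5 and 74.4 against 73.8 and 61.9 CPM, were not called (edgeR adjusted p = 0.595). HTRA2, a protease released from mitochondria, fell by 0.33 on the log2 scale in mRNA (edgeR adjusted p = 0.00022). In footprints none of 12 rose and 2 fell (median 0.01), where 10.9% of all genes fell, among them DIABLO, which neutralises inhibitor of apoptosis proteins.

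Some inhibitor of apoptosis proteins block caspases. Of 5 tested in mRNA 3 rose and none fell, and of 4 tested in footprints 2 rose and 1 fell, beside 37.8% of all genes called in mRNA and 21.2% in footprints. The medians of the list were 0.49 and 0.33. BIRC2 rose in mRNA from 37.8 and 35.1 to 54.6 and 47.1 CPM (a log2 fold change of 0.49 with an edgeR adjusted p of 0.00016). XIAP, named after its values were seen, rose in mRNA from 17.4 and 16.6 to 29.9 and 31.3 CPM (0.85, edgeR adjusted p = 1.1e-06). The XIAP footprints were not called (log2 fold change 0.39, edgeR adjusted p = 0.342). BIRC5 (survivin) fell in footprints from 416.9 and 437.9 to 299.2 and 371.5 CPM (log2 fold change -0.38, edgeR adjusted p = 6.3e-05), a call lost without mutant replicate 1 (-0.21, adjusted p = 0.293). Its mRNA was not called (-0.07).

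Upstream, the death receptor list had 1 gene higher in mRNA, 1 lower and 5 not called, where 37.8% of all genes were called (list median -0.15). CFLAR, the decoy that keeps caspase-8 inactive, rose in mRNA from 77.3 and 72.3 to 100.4 and 98.3 CPM (log2 fold change 0.42, edgeR adjusted p = 8.1e-06). Its footprints were not called (log2 fold change 0.13, edgeR adjusted p = 0.646). FADD, the adaptor that recruits caspase-8, fell from 35.4 and 38.05 to 25.8 and 26.0 CPM (-0.51, adjusted p = 0.00093), a call lost without wild-type replicate 2 (-0.45, adjusted p = 0.0527) and with DESeq2 (adjusted p = 0.0766). FAS had 5 mRNA counts in all and FASLG none, FAS being named after its values were seen.

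Of 10 partners and turnover factors of BCL2 family proteins 4 rose in mRNA, 2 fell and 4 were not called, and 3 rose in footprints, where 37.8% and 21.2% of all genes were called (list medians 0.12 and 0.16). USP9X, a deubiquitinase that stabilises MCL1, rose from 238.5 and 232.75 to 296.7 and 273.4 CPM in mRNA (log2 fold change 0.28, edgeR adjusted p = 3.1e-06), or 0.11 once the density trend was removed (adjusted p = 0.115). HUWE1, a ubiquitin ligase of MCL1 named after its values were seen, was not called (-0.07, edgeR adjusted p = 0.164). VDAC1 fell from 381.0 and 388.3 to 338.0 and 357.6 CPM in mRNA (log2 fold change -0.15, edgeR adjusted p = 0.00805). That call was lost in 5 of 10 alternatives, DESeq2 among them (adjusted p = 0.124). These included 3 of the 4 fits with 1 library left out, whose log2 fold changes lay between -0.18 and -0.11. YWHAZ, a 14-3-3 protein of the family that holds phosphorylated BAD in the cytosol, rose from 306 and 320.7 to 379.5 and 385.9 CPM (0.28, adjusted p = 1.3e-07), and its value was 0.13, still called, once the density trend was removed.

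Among 8 transcriptional regulators of BH3-only genes 2 rose in mRNA, 2 fell and 4 were not called, where 37.8% of all genes were called (list median -0.09). E2F1 mRNA fell from 43.7 and 43.2 to 26.5 and 32.6 CPM (log2 fold change -0.56, edgeR adjusted p = 7.1e-05). Its footprints, at 15.7 and 11.8 against 13.5 and 16.3 CPM, were not called (log2 fold change 0.10, edgeR adjusted p = 0.869). FOXO3, a transcription factor of BCL2L11, fell from 35.7 and 41.9 to 27.2 and 29.3 CPM (-0.48, adjusted p = 0.0014), a call lost without wild-type replicate 2 (-0.34, adjusted p = 0.152) and with DESeq2 (adjusted p = 0.101). DDIT3 rose in footprints from 17.6 and 22.6 to 36.4 and 35.8 CPM (0.83, edgeR adjusted p = 0.00812). This call was lost without wild-type replicate 1, mutant replicate 1 or mutant replicate 2 (log2 fold changes of 0.67, 0.81 and 0.83). DESeq2 gave the DDIT3 footprints no adjusted p. In the test of footprints per mRNA 2 of the 45 genes of the 6 lists were called, DIABLO and ATF4, both lower, a share near the 4.15% called over all genes.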

How the data were processed

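The authors deposited raw counts, whole numbers of reads for each Ensembl gene, in 8 libraries, 1 library per file. Per the submitters' processing notes cutadapt, Trimmomatic, Bowtie2, STAR and featureCounts were used, with the builds hg38 and GRCh38. Versions, strand setting, counted feature and the treatment of multiply mapped reads have no entry in the sources used here, so reads of overlapping or antisense genes cannot be told apart. Of 20453 gene IDs, 20407 matched a symbol. Locations and promoter sequences are RefSeq's (GRCh38.p14). No transcript length was at hand, so CPM were not corrected for length. This holds too for the ratios and sums of several genes and for the order of members by footprints per mRNA.

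The 10 members and all gene lists were chosen with earlier results of these data known. Counts were tested with edgeR 4.0.16 (glmQLFit with legacy set to FALSE, glmQLFTest) in R 4.3.3, with TMM factors within each assay, filterByExpr by genotype and Benjamini-Hochberg adjustment over all genes tested in each comparison. A gene was called at an adjusted p under 0.05. CPM use TMM-scaled library sizes. Genotypes were compared in the 4 mRNA libraries and in the 4 footprint libraries, and footprints per mRNA as an interaction over 8 libraries, which also gave footprints against mRNA within each genotype. The procedure was run on simulated data, and the outcome is not given here. Alternatives were RLE factors, DESeq2 1.42.0, no filter on low counts, a replicate block, an assumed biological coefficient of variation of 10%, each library left out, and removal of a lowess trend of the fold change with the number of listed genes within 1 Mb. Summing the footprint libraries of a group was added after seeing the data.

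Genes were named from those given by a rule: all members, DNMT3A, the up to 4 genes of each list with the smallest p in a comparison of genotypes and a mean mRNA count of at least 100, and the 3 nearest genes to MCL1 and BCL2L1, while markers were given as levels. Not every list gene that the rule gave is described. Exceptions are marked where they stand. A result that the rule would name is not reported here.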

Additional observations from a re-analysis of the deposited data

Results flagged for a closer look

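The genotype effect differed between footprints and mRNA for 2 of the pathway genes, by the interaction test, which called 4.15% of all genes. DIABLO, which is released through the pore that BAX and BAK1 make, had mRNA values of 46.9 and 55.3 CPM in wild type and 56.1 and 51.2 CPM in the mutant. Its footprints were 191.5 and 192.0 CPM in wild type and 133.0 and 130.4 CPM in the mutant, both mutant libraries lower. Footprints per mRNA fell by 0.598 on the log2 scale (SE 0.15, edgeR adjusted p = 0.00823). It was no longer called without wild-type mRNA replicate 1 (edgeR adjusted p = 0.06), mutant mRNA replicate 1 (0.0535) or mutant footprint replicate 1 (0.0873), and with DESeq2 (adjusted p = 0.0945).

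ATF4, the transcription factor of the integrated stress response that drives DDIT3, had mRNA values of 529.7 and 525.0 CPM in wild type and 519.4 and 529.7 CPM in the mutant, which overlapped. Its footprints were 81.9 and 88.8 CPM in wild type and 58.2 and 55.4 CPM in the mutant. Footprints per mRNA fell by 0.577 on the log2 scale (SE 0.17, edgeR adjusted p = 0.03). The call was lost without wild-type footprint replicate 2 (edgeR adjusted p = 0.149), mutant footprint replicate 1 (0.245) or replicate 2 (0.153), and with DESeq2 (adjusted p = 0.099). With the biological coefficient of variation set to 10%, both calls were lost (edgeR adjusted p = 0.715 and 0.811).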

How the results depend on the processing

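The number of genes called moved with the tool and the spread assumed. DESeq2 called 1458 genes in mRNA, 384 in footprints (34.6% of them higher, against 48.5% with edgeR) and 127 in footprints per mRNA, and an assumed coefficient of variation of 10% left 313, 288 and 13. With 1 library left out the counts ranged from 2280 to 3838 in mRNA, from 274 to 1799 in footprints and from 139 to 450 in footprints per mRNA. The replicate block gave 4166, 2076 and 536 calls, and changed no call of a member between genotypes. The deviations of same-numbered libraries had correlations of 0.006 to 0.093, and the numbers were not taken as pairs. These correlations cannot decide whether libraries were paired, because the footprint replicates differed by no more than sampling noise.

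Of the members' 338 values between genotypes under alternatives, 302 kept direction and side of the threshold, 12 lost the call with the same sign, 1 gained it and 23 changed sign. Among the 338 are 15 DESeq2 values of uncalled genes that came with no adjusted p, read by direction only. The 12 were 6 each for BAX mRNA and MCL1 footprints, and BAX mRNA also lost its call in a setting where its sign changed. Their adjusted p was 0.458 and 0.395 with an assumed coefficient of variation of 10%. With the density trend removed the mRNA log2 fold change was 0.082 for MCL1, 0.043 for BAX, -0.10 for PMAIP1 and -0.16 for BCL2L11, and the footprint value of PMAIP1 was -0.11. With 1 library left out, mRNA values ranged from -0.32 to 0.42 for BCL2, from -0.043 to 0.18 for PMAIP1 and from -0.14 to 0.17 for BCL2L11. Footprint values ranged from -0.14 to 0.37 for BBC3, from -0.054 to 0.12 for BAX and from -0.18 to 0.31 for PMAIP1. Footprints per mRNA ranged from -0.14 to 0.61 for BCL2, from -0.26 to 0.23 for PMAIP1, from -0.034 to 0.16 for BCL2L1 and from -0.80 to 0.094 for BAK1. The wild-type calls of footprints against mRNA were lost at a coefficient of variation of 10% for BAK1 (edgeR adjusted p = 0.0508), BCL2L11 (0.0837), BBC3 (0.155) and BCL2L1 (0.258). Footprints against mRNA ranged from -0.19 to 0.038 for PMAIP1 in wild type, and in the mutant from -0.46 to 0.037 for BCL2 and from -0.33 to 0.16 for PMAIP1. The cause was not tested. Of the 27 results of pathway genes and DNMT3A, 26 lost their call when the coefficient of variation was set to 10%. The 944824 and 603360 counts of the mutant footprint libraries limit BCL2, BAD, BAK1 and BCL2L11 most.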
